A study of Homo sapiens with 16 samples.

Results

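The response to EPZ-5676 in the absence of HMBA was examined in 4 RNA-seq libraries of HCT116 cells, an established line from a human colorectal carcinoma. The series holds 16 libraries in 8 groups, formed by an shRNA (a control, shCTL, or one against NELFE, shNELFE) and a treatment (DMSO, EPZ-5676, HMBA or EPZ-5676 with HMBA). The 4 libraries were chosen by their labels, as those numbered 2 that carry DMSO or EPZ-5676 alone, and they were compared within shRNA. Their groups were shCTL cells with DMSO, shCTL cells with EPZ-5676, shNELFE cells with DMSO and shNELFE cells with EPZ-5676, at 1 library each, so that all 4 came from cells carrying an shRNA. The 4 matching libraries numbered 1 were left out because their profiles do not follow their labels. Across genes, their Pearson's r with the 4 libraries used was 0.722 to 0.790, against 0.980 to 0.988 among the 4. The labels give no dose, no duration, no clone or pool and no way of delivering the shRNA. No source says that the libraries are separate cultures, so the spread among them may be technical. With 1 library per group, the p-values of the 4-library fit rest on how far the 2 shRNA pairs disagree, not on replicates of a group. The question of the comparison is which mRNAs differ when DOT1L is inhibited.

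DOT1L is the methyltransferase that adds methyl groups to lysine 79 of histone H3, a mark found over the bodies of transcribed genes. It works in a complex with MLLT10 or MLLT6 and with MLLT3 or MLLT1, and the last pair also bind the super elongation complex, which brings the kinase P-TEFb to RNA polymerase II. EPZ-5676 (pinometostat) competes with the methyl donor in the active site of DOT1L, and it was developed against leukaemias with KMT2A fusions, in which the HOXA genes and MEIS1 are kept active. NELFE is a subunit of the negative elongation factor, which holds the polymerase paused downstream of promoters. HMBA is a polar compound that frees P-TEFb from its inhibitory complex.

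Total counts ran from 13428893 to 15804336 per library, and a floor of 3 counts was worth 0.190 to 0.223 CPM, the counts of a gene scaled to its library's total. Floors and intervals cover counting error only. NELFE stood at 85.5 CPM in shCTL DMSO and 90.0 in shCTL EPZ-5676, against 20.3 in shNELFE DMSO and 23.9 in shNELFE EPZ-5676, which follows the shRNA labels. Of 10 markers of colorectal epithelial lines, 9 had counts, with a summed level of 5181 to 6513 CPM under DMSO and 5852 to 6974 under EPZ-5676. CEACAM5 was at 0 in all 4 libraries, and LGALS4 lay under the 3-count floor in each, at 0 to 0.138 CPM. KRT8 alone held 2492 to 3467 CPM of the sum. Markers of other cell types were scarce, with sums of 10.9 to 34.0 CPM for 8 fibroblast genes (DCN, LUM, PDGFRA and FAP at 0), 11.5 to 23.2 for 8 leukocyte genes (CD3E at 0), 2.63 to 4.02 for 6 endothelial genes (CLDN5 at 0) and 2.02 to 5.73 for 7 hepatocyte genes (APOB and TTR at 0). The shCTL EPZ-5676 library stood apart in RNAs that mostly lack a poly(A) tail or stay in the nucleus. It held MALAT1 at 805 CPM against 82.6 to 109 in the other 3 libraries, and RN7SK, the RNA of the P-TEFb inhibitory complex, at 69.8 against 4.49 to 8.80. Small RNA classes together reached 308 CPM there against 42.7 to 52.4, and the part of this library's makeup in the results below was not tested.

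Many genes differed by a little and few by much. In the edgeR quasi-likelihood test with a term for the shRNA, 2141 of 13999 genes passed an adjusted p of 0.05, which is 15.3% of those tested, and 3765 had an unadjusted p under 0.05. Of the 2141, 989 were higher with EPZ-5676 (7.06%) and 1152 lower (8.23%). Which direction held more calls depended on the scaling, since 46.2% of the calls were higher with TMM scaling and 52.7% with unscaled totals. The median size of a called change was 0.36 on the log2 scale. At least 2-fold changes were called for 89 genes upward (0.636%) and 35 downward (0.25%). The change had the same sign in the shCTL pair and in the shNELFE pair for 2123 of the 2141 called genes, which the test favours, and for 66.6% of all genes tested. The 2 EPZ-5676 libraries did not overlap the 2 DMSO libraries for 1817 of the called genes, against 39.4% of all genes tested.

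The plot of the pair differences shows this gene by gene. Across the 13999 genes, the log2 differences of the 2 pairs had a Pearson's r of 0.35 and a Spearman's rho of 0.43, and across the 9551 genes with a mean of at least 10 CPM Pearson's r was 0.62. Genes are not independent replicates. The pairs share no library.

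**Figure D1:**
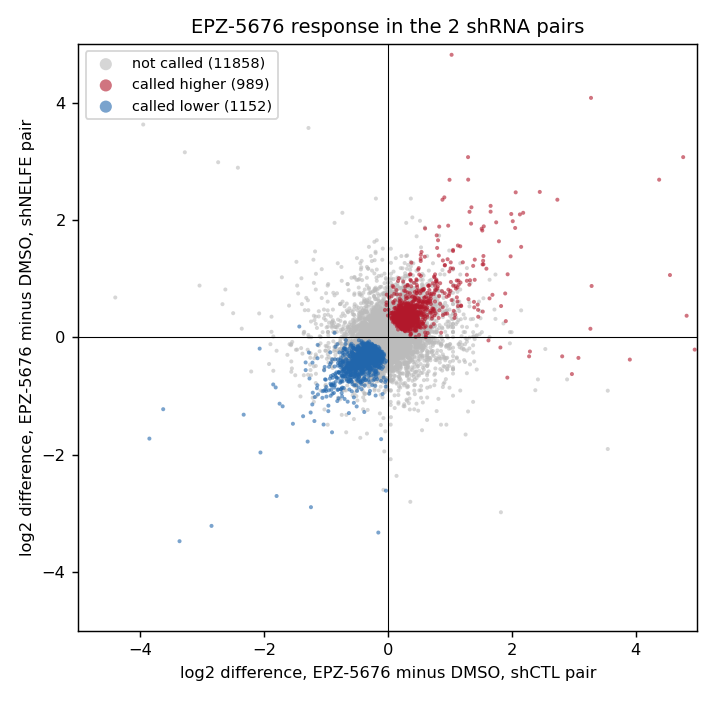
Log2 difference of EPZ-5676 minus DMSO in the shNELFE pair (vertical axis) against the shCTL pair (horizontal axis), 1 point per gene tested, coloured by the edgeR call; 5 genes lie outside the axes. The 989 genes called higher lie mostly in the upper right and the 1152 called lower mostly in the lower left, where both pairs have the same sign.

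How many genes were called depended on how the spread was estimated. With 4 libraries and 1 residual degree of freedom, edgeR took each gene's spread from the trend over all genes alone. A fit on the 8 libraries numbered 2, with the HMBA libraries adding to the estimate of spread, called 1267 of 14808 genes (8.56%), with 3.98% higher and 4.57% lower, and 1258 of them were among the 2141. limma-voom called 1587 and DESeq2 called 293 (36.9% of them higher), all of them among the 2141. When the 4 libraries numbered 1 were added, edgeR and limma-voom called 0 genes. Without a term for the replicate number, 191 genes had an unadjusted p under 0.05 in edgeR and DESeq2 called 3, and with the term these counts were 889 and 29. Leaving out any 1 of the 4 libraries in the 8-library fit called 480 to 502 genes, with 497 without the shCTL EPZ-5676 library, whose noncoding RNA stands apart. In all, 287 genes were called by both edgeR fits, limma-voom and DESeq2, of which 107 were higher and 180 lower. Those are referred to below as called in all 4 fits.

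The genes with the firmest changes are shown first. They are the 12 largest rises and 11 of the 12 largest falls among genes called in all 4 fits and in each 8-library fit that left out 1 of the 4 libraries, and they were chosen after their values were seen. Their edgeR adjusted p in the 4-library fit ran from 5.42e-97 for NHS to 4.48e-10 for RIGI.

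NHS, which encodes a regulator of the actin cytoskeleton (ENSG00000188158, hg38 chromosome X, 17375420 to 17735994), held 13.1 CPM in shCTL DMSO and 58.0 in shCTL EPZ-5676, and 14.7 in shNELFE DMSO and 63.1 in shNELFE EPZ-5676. Both EPZ-5676 libraries were far above both DMSO libraries. The log2 fold change was 2.12 (SE 0.099), and the 8-library edgeR fit gave an adjusted p of 3.18e-12. PLPP3, a membrane enzyme that removes phosphate from lysophosphatidic acid and related lipids, went from 10.8 to 43.5 CPM in shCTL cells and from 9.30 to 40.4 in shNELFE cells, a log2 fold change of 2.06 (SE 0.11). GRAMD1B, a sterol carrier at contacts between the endoplasmic reticulum and the plasma membrane, went from 12.6 to 39.9 CPM and from 7.45 to 35.8. For each of the 3, the EPZ-5676 libraries of the 2 shRNAs lay closer to each other than to their own DMSO libraries.

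Several of the other rises encode proteins that are secreted or work at the matrix. THBS1, the matrix glycoprotein thrombospondin 1 (chromosome 15, 39581079 to 39599466), stood at 192 CPM in shCTL DMSO and 191 in shNELFE DMSO against 363 and 447 with EPZ-5676. Its log2 fold change was 1.07 (SE 0.067), and the 8-library edgeR fit gave an adjusted p of 2.07e-09. FGFBP1, which releases fibroblast growth factors from the matrix, rose from 11.0 to 35.2 CPM in shCTL cells and from 3.06 to 14 in shNELFE cells. TGM2, a crosslinking transglutaminase, rose from 20.4 to 40.01 and from 11.2 to 28.4 CPM, and the guidance ligand SEMA3A from 16.6 to 36.1 and from 11.0 to 21.6. FGFBP1 and SEMA3A were higher in shCTL than in shNELFE cells under either treatment.

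The remaining rises were of mixed function. ZBED2, a zinc finger repressor, went from 5.59 to 16.5 CPM in shCTL cells and from 15.1 to 37.5 in shNELFE cells. TNS4, a tensin of focal adhesions, went from 29 to 51.5 CPM and from 20.005 to 52.8. RAB3A, a GTPase of regulated secretion, went from 8.61 to 19.2 and from 12.8 to 24 CPM, and LMO7, a LIM domain protein of cell junctions, from 13.3 to 27.9 and from 10.3 to 19.1. MAGEA2B rose within each pair, from 31.6 to 48.0 and from 7.07 to 26 CPM, but its EPZ-5676 and DMSO libraries overlapped across shRNAs. It has a near-identical neighbour, so its counts are uncertain.

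SPRY4, which is induced by ERK signalling and dampens it (chromosome 5, 142310427 to 142326455), fell from 46.6 to 20.5 CPM and from 34.5 to 17.0, a log2 fold change of -1.11 (SE 0.10). DUSP5, the nuclear phosphatase of ERK, fell from 134 to 67.1 CPM and from 125 to 69.3. NAB2, the corepressor that binds EGR1 and is itself an early response gene, fell from 100.2 to 52.7 and from 107 to 53.4 CPM. For each of SPRY4, DUSP5 and NAB2, both EPZ-5676 libraries lay below both DMSO libraries.

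A pair of falls belong to the protein kinase A pathway. PRKACB, a catalytic subunit of protein kinase A, fell from 235 to 113 CPM in shCTL cells and from 322 to 171 in shNELFE cells. PKIB, an inhibitor of that kinase, fell from 34.5 to 21.9 and from 34.4 to 16 CPM. NAV3, a microtubule-binding protein encoded over a very long gene, fell from 81.3 to 34.1 and from 113 to 46.2 CPM, and the nuclear receptor NR2F1 from 104 to 50.7 and from 135 to 71.7. GULP1, an engulfment adaptor, fell from 63.5 to 31.8 and from 74.0 to 36.7 CPM. TUFT1 fell from 28.3 to 15.2 and from 30.4 to 15.6 CPM, the desmosomal cadherin DSC3 from 33.2 to 17.6 and from 40.6 to 21.8, and the RNA sensor RIGI from 19.7 to 12.05 and from 17.6 to 8.43. None of these 11 falls had overlapping arms.

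**Figure D2:**
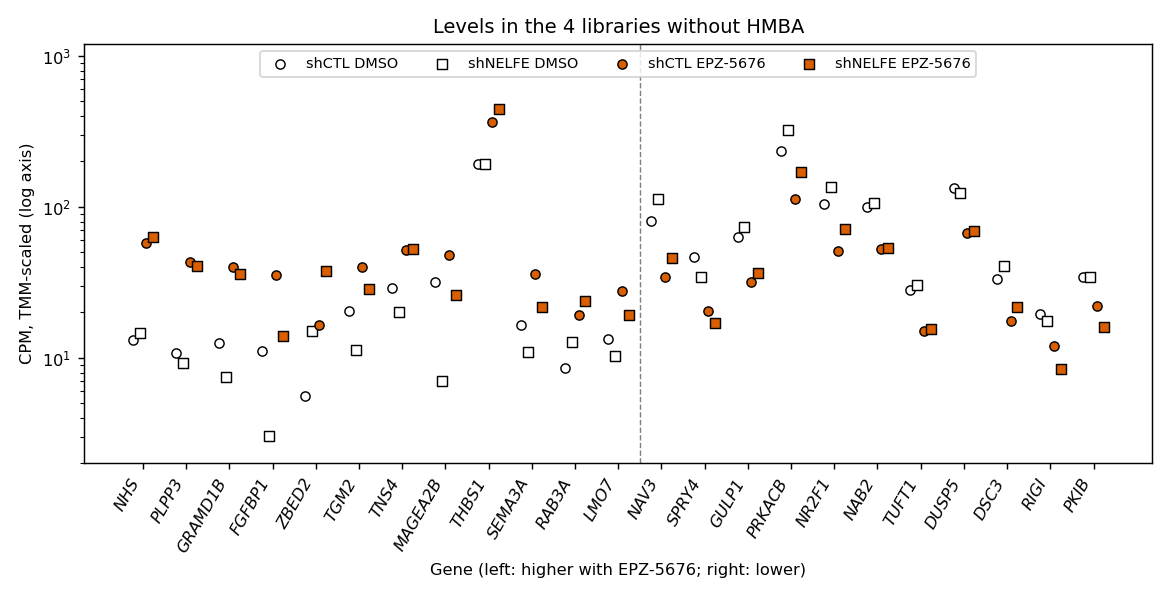
CPM on a log axis in each of the 4 libraries (1 point per library) for the 12 genes with the largest rises and for 11 of the 12 with the largest falls called in all 4 fits; filled points are EPZ-5676, open points DMSO, circles shCTL and squares shNELFE. Filled points lie above open ones for every gene on the left except MAGEA2B, whose arms overlap, and below them for every gene on the right.

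The promoters of a pair of rises and a pair of falls are printed because these 4 genes have a response of clear size in both shRNA backgrounds. Each is RefSeq sequence of GRCh38.p14, 250 bases before to 50 after the farthest upstream of the gene's starts in the RefSeq promoter table, read 5′ to 3′ on the gene's strand, and capitals mark the GC box (GGGCGG or its reverse complement CCGCCC) and the TEAD motif (GGAATG or CATTCC). The gene spans given with values are those of GENCODE, and that of SPRY4 begins upstream of the window shown.
NHS, chrX:17374950-17375249, plus strand: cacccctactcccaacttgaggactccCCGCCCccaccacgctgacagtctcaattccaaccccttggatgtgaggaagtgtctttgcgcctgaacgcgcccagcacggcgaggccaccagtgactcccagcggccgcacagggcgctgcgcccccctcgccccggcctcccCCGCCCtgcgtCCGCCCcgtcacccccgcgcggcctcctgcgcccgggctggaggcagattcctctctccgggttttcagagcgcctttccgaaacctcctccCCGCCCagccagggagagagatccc
THBS1, chr15:39580829-39581128, plus strand: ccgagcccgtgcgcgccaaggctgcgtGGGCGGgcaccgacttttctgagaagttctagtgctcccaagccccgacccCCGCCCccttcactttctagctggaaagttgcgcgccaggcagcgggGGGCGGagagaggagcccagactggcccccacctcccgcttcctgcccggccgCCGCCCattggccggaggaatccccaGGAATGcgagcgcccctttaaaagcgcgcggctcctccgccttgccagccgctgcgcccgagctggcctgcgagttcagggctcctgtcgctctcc
SPRY4, chr5:142324198-142324497, minus strand: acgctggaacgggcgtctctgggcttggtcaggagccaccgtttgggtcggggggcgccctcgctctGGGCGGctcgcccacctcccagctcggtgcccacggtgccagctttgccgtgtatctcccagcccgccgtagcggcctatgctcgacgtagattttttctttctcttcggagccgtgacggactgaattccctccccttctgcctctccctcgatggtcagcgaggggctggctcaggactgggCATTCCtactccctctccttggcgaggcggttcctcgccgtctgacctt
NAB2, chr12:57088864-57089163, plus strand: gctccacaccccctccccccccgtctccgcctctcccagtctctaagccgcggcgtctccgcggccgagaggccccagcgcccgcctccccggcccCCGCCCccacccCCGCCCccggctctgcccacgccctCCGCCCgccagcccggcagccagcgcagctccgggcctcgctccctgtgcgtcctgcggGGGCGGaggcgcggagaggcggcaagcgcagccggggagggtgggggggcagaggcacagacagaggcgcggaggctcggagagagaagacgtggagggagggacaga
All 4 windows hold a GC box on one strand or the other, as do 71.3% of the 10005 promoters of protein-coding genes tested that matched the RefSeq table. Among other firm genes with a matched window, those of RAB3A, PRKACB, TUFT1, RIGI and PKIB hold one. Those of PLPP3, FGFBP1, ZBED2, MAGEA2B, LMO7, NAV3, GULP1, NR2F1 and DSC3 hold none. For NAV3 (window 77830644 to 77830943) and PLPP3 (56579514 to 56579813, minus strand), the window lies inside the GENCODE span, downstream of its start. The sequence at the GENCODE starts of NAV3 and PLPP3 was not searched. The search also covered AP-1, E-box, ETS, TATA box and CRE letters, which the 4 windows lack. A TEAD motif, found in THBS1 and SPRY4, is in 10.7% of those promoters. Promoters matched for 77.4% of protein-coding genes called higher and 79.2% of those called lower, under the 80% that a comparison of sets needs, so a comparison of motif shares between called and other genes is void. A match to these letters is a description of the window.

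The rule for named genes also took the 12 largest fitted rises and falls among called genes that reached 2 CPM on average in their higher arm, and most of these are low. PTPRR, a receptor tyrosine phosphatase, had 60 counts in the EPZ-5676 libraries and 2 in the DMSO libraries, a ratio of 31.7 (95% exact binomial interval 8.40 to 268). BMP5, a ligand of the bone morphogenetic protein family, had 83 against 3 counts, a ratio of 29.2 (9.66 to 145). PTPRR held 0 and 0.127 CPM under DMSO and 2.75 and 1.58 under EPZ-5676, and BMP5 0.144 and 0.0637 against 2.60 and 3.29. Both were called by edgeR and limma-voom and in each 8-library fit that left out a library, and DESeq2 gave no adjusted p for them. NR4A3, an orphan nuclear receptor induced early by many signals, rose from 1.36 to 4.91 and from 1.15 to 4.86 CPM, and the caveolar coat gene CAVIN2 from 0.932 to 5.73 and from 0.255 to 2.06. PDE4D, a cyclic AMP phosphodiesterase, rose from 1.22 to 3.20 and from 0.382 to 3.22 CPM, and FSTL4 from 0.502 to 2.45 and from 1.53 to 6.44. Among the falls, ARHGAP24, which inactivates RAC, went from 14.1 to 5.35 and from 17.8 to 6.92 CPM, and the receptor GPR15 from 3.23 to 0.669 and from 2.80 to 0.617. Of the 24, IFNAR2-IL10RB, PKD1P1, BMS1P4-AGAP5, INO80B-WBP1, TVP23C-CDRT4 and POC1B-GALNT4 are readthrough or pseudogene loci that share sequence with other genes, and their counts are uncertain. THSD8 differed mostly in 1 pair, from 0.0717 to 13.8 CPM in shCTL cells and from 4.33 to 6.92 in shNELFE cells.

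The target and its partners come first among the gene lists, which were written with earlier results of these data known. DOT1L itself (ENSG00000104885, hg38 chromosome 19, 2164149 to 2232578) was at 93.0 CPM in shCTL DMSO and 83.1 in shCTL EPZ-5676, and at 105 in shNELFE DMSO and 98.0 in shNELFE EPZ-5676. The arms overlapped, and the log2 fold change of -0.13 (SE 0.070) had an edgeR adjusted p of 0.222. An inhibitor acts on the enzyme, so this mRNA checks no label. Of 9 genes of DOT1L and its complex, 1 was called higher (11.1%, against 7.06% of all genes tested) and 1 lower (11.1%, against 8.23%). MLLT3, a reader that recruits DOT1L, fell from 7.89 to 3.20 and from 5.10 to 3.08 CPM, a log2 fold change of -1.02 (SE 0.21, edgeR adjusted p 5.24e-05), while MLLT1, its paralog, rose from 61.3 to 75.7 and from 59.3 to 82.7, a log2 fold change of 0.39 (SE 0.076, edgeR adjusted p 8.41e-06). MLLT3 got no adjusted p from DESeq2 and MLLT1 had 0.0691 there. MLLT10 (0.19, edgeR adjusted p 0.0820) and MLLT6 (0.15, edgeR adjusted p 0.145) did not pass.

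Elongation factors and classical DOT1L targets changed at about the background share. Of 21 genes of the super elongation complex, P-TEFb, NELF and related factors, 2 were called higher (9.52%) and 1 lower (4.76%), none in all 4 fits. Over all genes tested the shares were 7.06% higher and 8.23% lower. AFF4, the scaffold of the super elongation complex, fell from 94.8 to 77.6 and from 80.02 to 64.5 CPM. MEPCE, the capping enzyme of RN7SK, rose from 67.5 to 84.0 and from 62.7 to 74.0. HEXIM1, the P-TEFb inhibitor, stood at 90.9 and 75.2 CPM under DMSO and 86.5 and 73.8 under EPZ-5676, with an edgeR adjusted p of 0.722. Of 12 measured genes of the HOXA cluster and MEIS, HOXA4 alone was called (8.33% higher). It went from 2.37 to 3.42 and from 1.72 to 3.77 CPM with an edgeR adjusted p of 0.0255. It was not called in the 8-library edgeR fit, where the adjusted p was 0.0937. Of 13 other HOX genes edgeR called 0, and 3 had an unadjusted p under 0.05, all lower. Of 23 writers and erasers of other chromatin marks, 2 were higher (8.70%) and 1 lower (4.35%), near the shares over all genes, and none in all 4 fits. The H3K27 demethylase KDM6A fell from 38.0 to 29.4 and from 47.1 to 37.3 CPM, and RNF40, of the ligase for ubiquitin on histone H2B, rose from 128 to 152 and from 137 to 166.

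The immediate early and AP-1 list had more falls than the background share of 8.23%. These are genes induced within minutes of growth factor signals, together with the feedback inhibitors that ERK induces. Of 29 measured, 12 were lower and 3 higher, 7 and 1 of them in all 4 fits. The median log2 fold change was -0.20 against -0.0035 over all genes tested. By pair, the median difference was -0.24 in shCTL cells but only -0.048 in shNELFE cells. Beside DUSP5 and SPRY4, KLF6 fell from 88.2 to 55.6 and from 84.9 to 55.6 CPM (log2 -0.64, SE 0.076). By contrast DUSP4, another nuclear phosphatase of MAP kinases, rose from 146 to 227 and from 150 to 235 CPM, a log2 fold change of 0.64 (SE 0.069, edgeR adjusted p 2.69e-18). FOSL1 and FOSL2, subunits of AP-1, and DUSP6, the cytoplasmic phosphatase of ERK, also fell in all 4 fits and are named here after their values were seen. FOSL1 went from 370 to 253 and from 382 to 288 CPM, FOSL2 from 54.1 to 36.0 and from 65.8 to 39.0, and DUSP6 from 77.6 to 54.0 and from 107 to 73.0. In each of them both EPZ-5676 libraries were below both DMSO libraries.

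Genes listed for the coactivator YAP and the TEAD transcription factors of the Hippo pathway moved both ways. Of 17, 7 were lower (41.2%, against 8.23% of all genes tested) and 3 higher (17.6%, against 7.06%). The 3 rises were called in all 4 fits while none of the falls was. F3, which encodes tissue factor, rose from 211 to 333 and from 218 to 402 CPM (log2 0.77, SE 0.066). WWC1, an upstream activator of the Hippo kinases, rose from 142 to 200.3 and from 146 to 220.0. TEAD1, itself one of the TEAD factors, rose from 179 to 213 and from 187 to 245. CCN1, a matricellular protein and a standard YAP reporter, fell from 111 to 61.2 CPM in shCTL cells and from 80.02 to 61.7 in shNELFE cells. Its log2 fold change of -0.61 (SE 0.074) passed in 3 fits and had an adjusted p of 0.185 in DESeq2.

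Falls outnumbered rises among genes of cholesterol and fatty acid synthesis, most of which are targets of SREBP2 or SREBP1. Of 28, 10 were called lower (35.7%, against 8.23% of all genes tested) and 1 higher (3.57%, against 7.06%). Of the falls, 7 were called in all 4 fits. The list's median log2 fold change was -0.15, with -0.16 in the shCTL pair and -0.16 in the shNELFE pair. SQLE, squalene epoxidase, fell from 95 to 62.2 and from 83.6 to 57.8 CPM, a log2 fold change of -0.57 (SE 0.075, edgeR adjusted p 3.27e-12). MSMO1, a later sterol demethylase, fell from 48.8 to 33.5 and from 39.9 to 25.2, and FDFT1, squalene synthase, from 120.1 to 88.9 and from 105 to 76.0.

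The called genes of glycolysis and the hypoxia response were all higher. Of 20, 5 rose in edgeR (25%, against 7.06% of all genes tested) and 0 fell (against 8.23%). At an unadjusted p under 0.05 the counts were 9 and 0. In all 4 fits 2 of the 5 were called. The median was 0.10, with 0.19 in the shCTL pair and 0.054 in the shNELFE pair. SLC2A1, the main glucose transporter GLUT1, rose from 141 to 242 CPM in shCTL cells and from 127 to 251 in shNELFE cells, a log2 fold change of 0.88 (SE 0.069, edgeR adjusted p 2.49e-34). HK2, hexokinase 2, rose from 138 to 187 and from 133 to 191 CPM (log2 0.48, SE 0.069). SLC2A3, a second glucose transporter, rose from 13.1 to 21.3 and from 4.78 to 8.08, and ALDOA from 1698 to 2028 and from 1418 to 1580. For SLC2A3 and ALDOA the EPZ-5676 and DMSO arms overlapped across shRNAs.

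Rises of small size were frequent among ribosome biogenesis genes and other MYC targets. Of 28, edgeR called 11 higher (39.3%, against 7.06% of all genes tested) and 0 lower (against 8.23%). At an unadjusted p under 0.05 the counts were 14 and 0. In all 4 fits 4 of the 11 were called, and 19 of the 28 were up in both pairs. The median was 0.13, with 0.15 in the shCTL pair and 0.13 in the shNELFE pair. MYBBP1A, a nucleolar regulator of ribosomal RNA synthesis, rose from 203 to 259 and from 192 to 272 CPM (log2 0.43, SE 0.067). POLR1G, a subunit of RNA polymerase I, rose from 74.9 to 96.2 and from 71.0 to 97.7, and the processing factors NOP16 from 81.8 to 104 and from 78.8 to 99.4 and RRP12 from 142 to 169 and from 134 to 173. MYC itself did not pass, at 908 and 713 CPM under DMSO and 900.1 and 824 under EPZ-5676 (log2 0.098, edgeR adjusted p 0.310).

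Most mitochondrially encoded mRNAs were called lower. All 13 had a negative difference in both pairs, and 9 were called lower (69.2%, against 8.23% of all genes tested). Of those 9, 2 were called in the 8-library fit and 1 in all 4 fits. The largest fall was MT-ND4L, a subunit of complex I, from 664 to 439 and from 688 to 562 CPM (log2 -0.44, SE 0.063), then MT-ATP8 from 276 to 185 and from 255 to 215. These genes share 1 genome and its transcripts, and their part of all counts was 5.41% and 5.65% under DMSO against 4.81% and 5.14% under EPZ-5676. With HMBA the median of the same 13 was 0.12, the opposite sign, but the 2 pairs differed there. On CPM scaled over the 8 libraries numbered 2, MT-ND4L went from 938 to 1194 in shCTL cells with HMBA and from 1152 to 1078 in shNELFE cells. MT-ATP8 went from 317 to 460 and from 431 to 434.

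Stress responses were mixed. Of 21 genes of the amino acid response driven by ATF4, 2 rose (9.52%, against 7.06% of all genes tested) and 3 fell (14.3%, against 8.23%). STC2, a secreted glycoprotein, rose from 87.5 to 141 and from 105 to 160 CPM, a log2 fold change of 0.65 (SE 0.070, edgeR adjusted p 4.60e-18). SLC7A11, the cystine transporter, fell from 92.8 to 62.5 and from 42.5 to 34.9, and DDIT4, an inhibitor of mTORC1, from 116 to 113 and from 90.9 to 53.6. The arms of SLC7A11 and of DDIT4 overlapped across shRNAs. Of 17 genes of the unfolded protein response, 5 rose (29.4%) and 1 fell (5.88%), with none in all 4 fits. Their median log2 difference was 0.18 in the shCTL pair and -0.036 in the shNELFE pair. HSPA5, the chaperone BiP, went from 1865 to 2345 CPM in shCTL cells and from 954 to 1029 in shNELFE cells, with overlapping arms. Of 15 NRF2 targets and ferritin genes, 6 fell (40%) and 2 rose (13.3%), with a median of -0.14 in the shCTL pair and -0.058 in the shNELFE pair. ME1, malic enzyme, fell from 97.3 to 75.7 and from 101 to 72.6 CPM, TXNRD1, thioredoxin reductase, from 1238 to 1022 and from 1159 to 941, while FTH1, the ferritin heavy chain, rose from 1247 to 1654 and from 1314 to 1526. ME1, TXNRD1 and FTH1 were called in all 4 fits.

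Genes of G1/S and of G2/M were called higher at shares near that over all genes, and 0 were called lower, against 8.23% of all genes tested. Of 25 genes of G1/S and DNA replication, cyclin E1 (CCNE1) alone was called (4% higher, against 7.06% of all genes tested), from 41.6 to 56.7 and from 38.7 to 51.5 CPM. Of 22 genes of G2/M, PLK1 (from 155 to 174 and from 158 to 191) and CDC20 (from 235 to 268 and from 233 to 268) were called higher, which is 9.09%, neither in all 4 fits. Of 20 p53 targets and cell cycle inhibitors, 4 fell and 0 rose in edgeR (5 and 0 at an unadjusted p under 0.05), a share of 20% lower against 8.23% of all genes tested, and 14 were down in both pairs. CDKN1A, the inhibitor p21, fell from 126 to 94.7 and from 187 to 151 CPM (log2 -0.36, SE 0.069), the ribonucleotide reductase subunit RRM2B from 66.0 to 49.1 and from 75.1 to 51.6, and the death receptor TNFRSF10B from 128 to 101 and from 146 to 114. Those 3 were called in all 4 fits, while CDKN1A and TNFRSF10B were called in none of the 8-library fits that left out 1 of the 4 libraries. For CDKN1A the shNELFE library with EPZ-5676 stood above the shCTL library with DMSO.

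Epithelial and mesenchymal genes changed in both directions. Of 21 genes of epithelial junctions and keratins, 6 rose (28.6%, against 7.06% of all genes tested) and 5 fell (23.8%, against 8.23%). ESRP2, an epithelial splicing factor, rose from 77.0 to 96.5 and from 67.3 to 97.7 CPM, while OCLN, occludin of tight junctions, fell from 73.0 to 54.7 and from 44.7 to 29.6. KRT80 rose from 144 to 161 and from 58.3 to 114, and KRT7 from 13.5 to 21.6 and from 4.27 to 8.01. The arms of OCLN, KRT80 and KRT7 overlapped across shRNAs. Of 12 mesenchymal genes, 3 rose (25%) and 2 fell (16.7%). FN1, fibronectin, rose from 27.0 to 35.0 and from 21.5 to 39.5 CPM in all 4 fits, TGFB2 from 0.502 to 2.08 and from 0.765 to 2.67, and the membrane protease MMP14 fell from 16.3 to 10.5 and from 12.4 to 8.36. COL1A1, the only fibroblast marker with enough counts to test, rose from 23.4 to 33.6 and from 10.8 to 18.2 CPM, with overlapping arms. Most genes of gut differentiation and of neurons were too low to test. Of the 4 gut genes measured, CDX2, a factor of intestinal identity, rose from 12.4 to 18.5 and from 11.3 to 14.9. Of the 6 neuronal genes, SYT1, a synaptotagmin, fell from 51.2 to 33.3 and from 70.0 to 42.5 CPM in all 4 fits.

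In the signalling lists, of 14 WNT targets 2 rose (14.3%, against 7.06% of all genes tested) and 1 fell (7.14%, against 8.23%). RNF43, which removes WNT receptors from the membrane, fell from 59.96 to 35 and from 67.7 to 48.8 CPM, and BMP4 rose from 381 to 493 and from 408 to 604, both in all 4 fits. AXIN2, the standard WNT feedback gene, rose from 4.09 to 6.69 and from 5.86 to 9.66, with an 8-library adjusted p of 0.0210 by edgeR. Of 23 interferon-stimulated genes, 5 fell (21.7%) and 0 rose in edgeR (6 and 0 at an unadjusted p under 0.05), and 14 were down in both pairs. With RIGI, PARP14 fell from 33.6 to 23.6 and from 32.6 to 22.1 CPM and the sensor IFIH1 from 9.90 to 6.47 and from 7.01 to 4.59. Of 10 NF-kB and acute-phase genes, RELB and BIRC3 fell (20%) and TNFAIP3 rose (10%), none in all 4 fits.

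Called changes among replication-dependent histone genes, whose mRNAs mostly end without a poly(A) tail, were all higher. The part of the makeup of the shCTL EPZ-5676 library, given above, in these rises was not tested. Of 8 measured, 4 rose in edgeR (50%, against 7.06% of all genes tested) and 0 fell. At an unadjusted p under 0.05 the counts were 6 and 0, and DESeq2 gave none of the 4 an adjusted p. The median log2 difference was 1.22 in the shCTL pair and 0.43 in the shNELFE pair. With HMBA, in libraries that do not include the shCTL EPZ-5676 library, the list's median log2 fold change was 0.80, with 0 members below 0. H4C14 went from 0.430 to 5.43 CPM in shCTL cells and from 1.019 to 1.99 in shNELFE cells, and H1-2 from 2.01 to 5.73 and from 3.63 to 5.41. Without that library, the 8-library fit gave H4C14 0.97 (edgeR adjusted p 0.303), H1-2 0.59 (0.394) and H2BC21 0.57 (0.513), and it called H2AC6 alone of the 4 (0.82, edgeR adjusted p 0.0375).

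**Figure D3:**
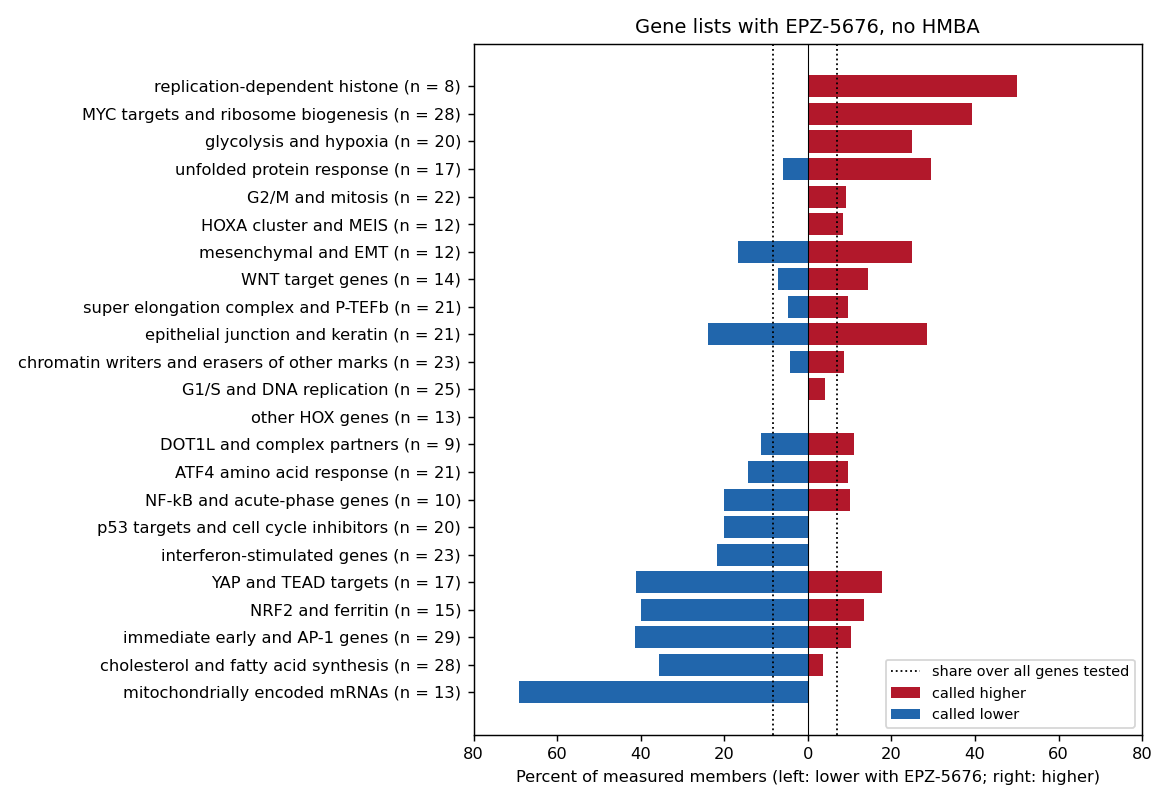
Percent of the measured members of each list called higher (bars to the right) and lower (bars to the left) by edgeR in the 4 libraries, with the number measured in brackets; dotted lines mark 7.06% higher and 8.23% lower over all genes tested. Bars to the left are longest for mitochondrially encoded mRNAs (9 of 13), the YAP and TEAD list, immediate early genes and NRF2 genes. Bars to the right are longest for histone genes (4 of 8) and MYC targets (11 of 28).

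Called falls were more frequent among long genes and called rises among short ones. The span of a protein-coding gene, from first to last annotated base in GENCODE release 29, had a median of 22.5 kb for the 904 called higher, 70.2 kb for the 1113 called lower and 33.3 kb for all 12408 tested. Of 954 genes under 5 kb, 11.1% were called higher and 4.40% lower. Of 889 genes of 200 kb or more, 4.95% were called higher and 20.02% lower. The share called lower was 3.68% for 5 to 10 kb, 4.86% for 10 to 20 kb, 7.13% for 20 to 50 kb, 11.4% for 50 to 100 kb and 16% for 100 to 200 kb. In the shortest class the median log2 difference was 0.078 in the shCTL pair and 0.061 in the shNELFE pair, and in the longest -0.14 and -0.10.

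The gradient was also present at a matched level. Among genes with a mean of 20 to 100 CPM, 17.3% of 353 genes under 5 kb were called higher and 3.68% lower, against 4.46% and 28.0% of 336 genes of 200 kb or more. By calls in all 4 fits, 12 of 954 genes under 5 kb were higher and 5 lower. Of 889 genes of 200 kb or more, 11 were higher and 31 lower. By these firmer calls, falls were more frequent in the longest class. Rises were about as frequent in the shortest class as in the longest, so the excess of rises among short genes was not seen there. In the HMBA libraries the medians of the fitted EPZ-5676 log2 fold changes were -0.016 in the shortest class and -0.051 in the longest, a smaller step. NAV3, PRKACB, GULP1 and ARHGAP24 are long genes that fell, while NHS, GRAMD1B and SEMA3A are long genes that rose. Span goes with exon number, transcript length and position in the genome, and these were not separated.

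**Figure D4:**
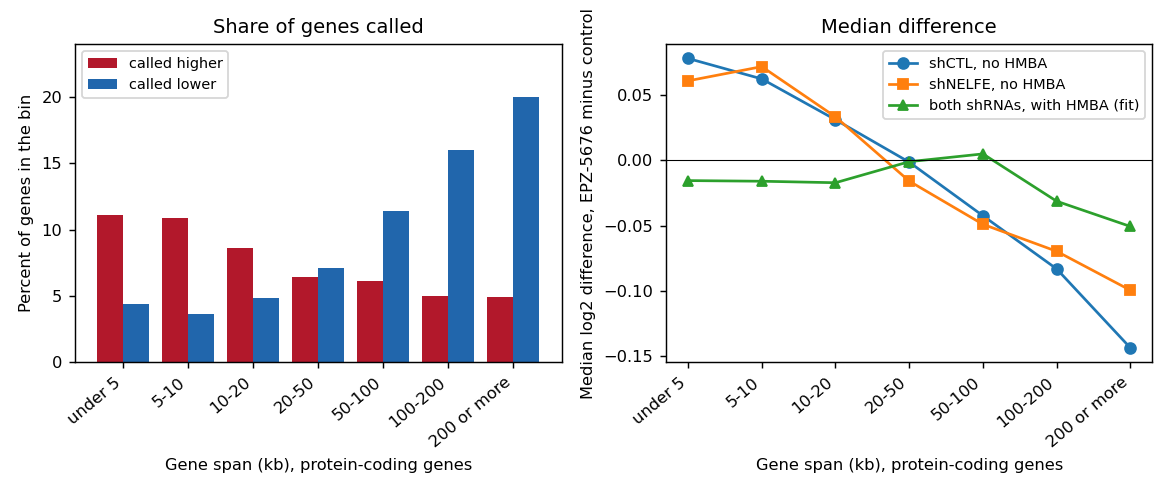
Protein-coding genes by span in kb. Left, percent of genes in each class called higher or lower by edgeR, from 11.1% and 4.40% under 5 kb to 4.95% and 20.02% at 200 kb or more; right, median log2 difference of EPZ-5676 minus its control in each class for the shCTL pair, the shNELFE pair and the fit of the libraries with HMBA, where the lines without HMBA slope down in parallel and the line with HMBA is flatter.

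The other 4 libraries numbered 2, with HMBA in both arms, give the same contrast in libraries that the calls did not use. Of the 2141 called genes, 2091 were tested there and 1501 (71.8%) had the same sign. The same share over all genes was not computed, and the median log2 fold change of all genes with HMBA was -0.0048. The genes called higher without HMBA had a median log2 fold change of 0.10 with HMBA (626 of 956 above 0), and those called lower -0.16 (875 of 1135 below 0), against medians of 0.35 and -0.36 without HMBA. In their own fit, 461 of 14049 genes were called with HMBA (3.28%). Of the genes called higher, 62 were called higher again and 6 lower, and of those called lower, 147 were called lower again and 8 higher. Genes picked by their calls have sizes that favour the setting in which they were picked, so the medians are not a test of a smaller effect.

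The difference between the settings was tested as a term of the 8-library fit. In edgeR it called 279 of 14808 genes (1.88%), and 2351 had an unadjusted p under 0.05. Among the 279, 204 were among the 2141, and for 201 of the 204 the term ran opposite to the change without HMBA, with the same libraries entering both. On CPM scaled over the 8 libraries, PLPP3 went from 9.96 to 40.2 and from 8.57 to 37.5 without HMBA, and from 9.42 to 11.7 and from 10.4 to 12.8 with HMBA, a difference with HMBA minus without of -1.77 (SE 0.18, edgeR adjusted p 7.02e-06). SPRY4 fell from 42.8 to 18.9 and from 31.8 to 15.7 without HMBA and went from 39.5 to 37.4 and from 40.7 to 37.8 with it. NHS rose in both settings, from 9.11 to 30.0 and from 7.19 to 19.02 with HMBA, and GRAMD1B from 5.32 to 29.6 and from 2.81 to 15.1, and the difference did not pass for either (edgeR adjusted p 0.0881 and 0.260). PRKACB fell from 93.9 to 42.1 and from 114 to 44.5 with HMBA, a difference that did not pass (edgeR adjusted p 0.195).

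Lists also differed in how their members compared across settings. For cholesterol and fatty acid synthesis the median log2 fold change was -0.15 without and -0.16 with HMBA, and SQLE fell from 48.8 to 30.9 and from 41.7 to 22.7 CPM with HMBA. For immediate early and AP-1 genes the medians were -0.20 and 0.038, and for MYC targets and ribosome biogenesis 0.13 and 0.028. For glycolysis and hypoxia they were 0.10 and -0.071, and SLC2A1, from 83.3 to 95.5 and from 70.6 to 80.8 CPM with HMBA, had a difference with an edgeR adjusted p of 0.000845. No test was made of these lists.

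**Figure D5:**
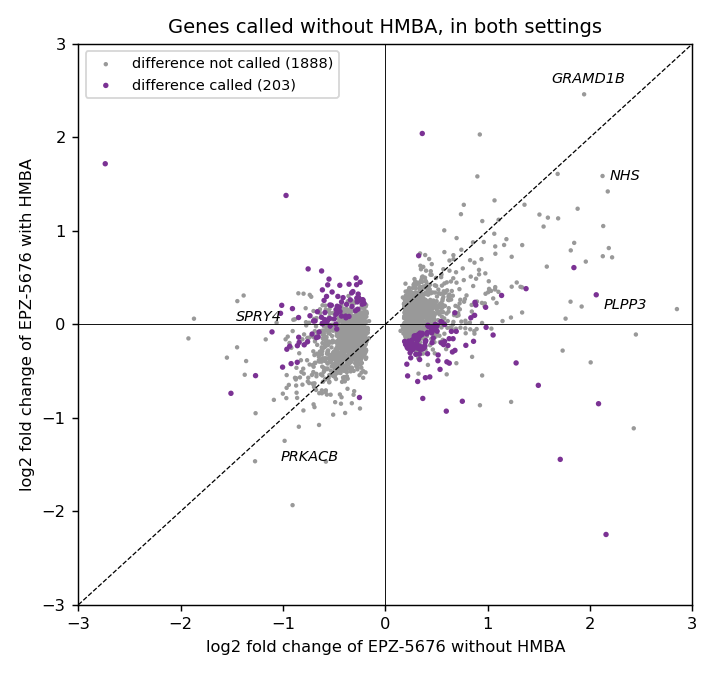
Fitted log2 fold change of EPZ-5676 with HMBA (vertical axis) against that without HMBA (horizontal axis) for the 2091 called genes tested in both settings, coloured by whether edgeR called the difference; 4 genes lie outside the axes and the dashed line marks equal change. GRAMD1B, NHS and PRKACB lie away from 0 on both axes, while PLPP3 and SPRY4 lie near 0 with HMBA.

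The EPZ-5676 response was also compared between the shRNAs. The term for shNELFE against shCTL, averaged over HMBA with 1 residual degree of freedom, called 34 of 14808 genes in edgeR (0.23%), where 968 had an unadjusted p under 0.05, and 14 of the 34 were among the 2141. P4HA1, a collagen prolyl hydroxylase, went from 68.8 to 82.9 CPM in shCTL cells and from 52.7 to 43.6 in shNELFE cells without HMBA, and likewise from 119 to 134 and from 113 to 89.8 with it, a difference of -0.52 (SE 0.097, edgeR adjusted p 0.00446). For NHS, THBS1 and SLC2A1 no such term was called, which does not show that the responses were equal. The median change among called genes was 0.32 in the shCTL pair and 0.37 in the shNELFE pair for rises, and -0.37 and -0.36 for falls.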

How the data were processed

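Poly(A) RNA libraries were made with a stranded TruSeq mRNA kit, per the labels' protocols. The authors deposited a table of raw counts per gene (60676 Ensembl identifiers), used as deposited. The submitters' processing notes name STAR 2.4.0b, Cufflinks 2.1.1, HTSeq 0.6.1p1, edgeR and the build hg38; which annotation and strand option the counting used is not given in the sources used here, so overlapping genes are uncertain. Symbols came from a reference table (60357 identifiers matched), positions from GENCODE release 29 on hg38 (58503 matched).

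Samples were grouped by title. edgeR 4.0.16 (R 4.3.3) gave quasi-likelihood F-tests with TMM scaling, filterByExpr and Benjamini-Hochberg adjustment over all genes kept, at 0.05, on 4 libraries with terms for shRNA and EPZ-5676; every adjusted p of the report is from this fit unless another is named. Standard errors were taken from the fold change and the F statistic. CPM use TMM-scaled totals; summed marker levels and noncoding RNAs use unscaled totals. Library correlations used log2 CPM with a prior count of 2. Differences were tested in the 8 libraries numbered 2 (2 residual degrees of freedom for HMBA, 1 for the shRNA). Alternatives were RLE scaling, unscaled totals, no filter, DESeq2 1.42.0, limma-voom (limma 3.58.1), no shRNA term, 8 libraries, each library left out, and, chosen after seeing the data, a robust spread and the 8-library fits that leave out a library. The code was tested on simulated counts.

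The members, lists and rules were chosen with earlier results of these data known. Named genes are 9 genes of DOT1L and elongation, the 12 largest rises and falls of at least 2 CPM with the same sign in both pairs, up to 4 members with the smallest p of each of 30 lists, and the 5 smallest p of each difference. Values of some genes these rules took are not given in the text.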

Additional observations from a re-analysis of the deposited data

Results flagged for a closer look

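The results here are differences between settings or shRNAs that passed their own edgeR test in the 8 libraries numbered 2, with CPM scaled over those 8. With HMBA minus without, the EPZ-5676 log2 fold change differed by -1.77 for PLPP3, 0.962 for CCN1, 0.900 for SOX4, 0.779 for SLC38A2 and 1.01 for SPRY4. CCN1 fell from 102 to 56.6 and from 73.7 to 57.2 CPM without HMBA and went from 126 to 166 and from 272 to 340 with it. SOX4, a transcription factor of progenitor cells, fell from 103 to 59.2 and from 140 to 75.9 CPM without HMBA, and with HMBA it was 31.8 and 28.2 before and 31.2 and 31.5 after EPZ-5676. SLC38A2, a glutamine transporter, fell from 469 to 290 and from 476 to 311 CPM without HMBA and was 103 to 134 in the 4 libraries with it. SOX4 and SLC38A2 were thus lower in every HMBA library than in any library without it.

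With shNELFE minus shCTL, the response differed by 8.99 for DUS4L-BCAP29, -1.73 for RN7SL2, -0.523 for P4HA1, 0.853 for USP49 and -0.519 for DDIT4. DUS4L-BCAP29 is a readthrough locus whose counts are uncertain; it was at 0 in both shCTL libraries with EPZ-5676, against 5.605 and 3.42 CPM in their controls. RN7SL2, the RNA of the signal recognition particle, was at 146 CPM in the shCTL EPZ-5676 library without HMBA and at 13.6 to 27.4 in the other 7, so its term rests on that library. USP49, a deubiquitinase, went from 7.78 to 5.92 CPM in shCTL cells and from 7.92 to 9.84 in shNELFE cells without HMBA, and from 34.1 to 31.4 and from 28.5 to 49.7 with it. DDIT4 went from 107 to 104 CPM in shCTL cells and from 83.7 to 49.7 in shNELFE cells without HMBA.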

How the results depend on the processing

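The count of 2141 called genes was 2118 with RLE scaling, 2141 with unscaled totals, 1834 with no filter, 1587 with limma-voom and 2151 with a robust spread, and it was 1267 in the 8 libraries numbered 2, 293 in DESeq2 and 2 with no shRNA term. Leaving out 1 library in the fit without that term called 6 to 35 genes, the fewest without the shNELFE DMSO library, and leaving out shCTL DMSO, shNELFE DMSO, shCTL EPZ-5676 or shNELFE EPZ-5676 in the 8-library fit called 502, 483, 497 or 480. In the 8 libraries without HMBA, which include number 1, edgeR and limma-voom called 0 of 16060 genes with the replicate block (889 at an unadjusted p under 0.05, 29 by DESeq2) and 0 of 15226 without it (191 and 3). The labels share numbers 1 and 2, and deviations of same-numbered libraries from group means correlated at 0.401 to 0.965 over 6 pairs of groups, numbers that nothing in the labels ties to a day or culture. The difference between HMBA settings called 279 genes, 279 with RLE, 253 with limma-voom and 29 with DESeq2. That between shRNAs called 34, and 67, 17 and 2.

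Of 154 named genes, 132 kept their direction and call in the 8-library fit and 149 in limma-voom; DESeq2 kept 78, lost 30 and gave no adjusted p for the rest. Reversals came only in the 3-library fits, where the arms differ in shRNA makeup: the log2 fold change ran from -0.96 to 0.20 for SLC7A11, -1.15 to 0.54 for ELF3, -0.46 to 0.82 for HSPA5, -0.068 to 1.24 for KRT80, -0.11 to 0.55 for HYOU1, -0.13 to 1.62 for SLC2A3, -0.14 to 1.79 for KRT7, -0.041 to 0.41 for KRT18, -0.95 to 0.12 for DDIT4 and -0.052 to 1.24 for H2AC6. The precision of low genes is limited by depth, as PTPRR and BMP5 show.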

Other observations

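Chromosomes differed in the balance of calls. On chromosome 16, 12.2% of 698 genes were called higher and 3.01% lower, and on chromosome 18, 6.28% of 191 genes were higher and 16.2% lower. Chromosome 4 had 5.12% higher and 12.8% lower of 469. These shares are given as values with no test, and chromosomes also differ in gene span.

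By annotated type, 5.56% of 378 lincRNA genes were called higher and 2.91% lower, and 4.25% of 400 antisense genes higher and 2% lower, against 7.29% and 8.97% of 12408 protein-coding genes. By level, 2.54% of 708 genes under 1 CPM were called higher and 1.13% lower, against 8.94% and 11.7% of 2058 genes at 100 CPM or more, which have more counts.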
